A study of Mus musculus with 18 samples.

Results

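The differential m6A peaks on 10 genes of leukemia inhibitory factor (LIF) signaling were examined in the pregnant mouse uterus, from the ligand Lif to the feedback inhibitors Socs1, Socs3 and Cish. A peak was taken for a gene when its annotation named a transcript of that gene, or when it was assigned to the gene and its centre lay between the start and end given for it. By this rule 19 of 40929 peaks in 4 tables of differential peaks belonged to 9 of the 10 genes. No peak of Il6ra was taken by the rule. Uteri were collected on day 5 of pregnancy from wild-type female ICR mice, 8 weeks old by the methods, under 3 treatments. Veh mice received vehicle on days 1 to 4, LPS mice received vehicle on days 1 to 4 and lipopolysaccharide (LPS, a bacterial endotoxin) at 0.5 mg/kg on days 3 and 4, and Mel+LPS mice received melatonin at 10 mg/kg on days 1 to 4, given 30 min before LPS on the days when both were injected. RNA of the whole uterus was fragmented, and fragments pulled down with an antibody to m6A were sequenced beside the input RNA. Each treatment had 3 replicates, with 3 input and 3 pulled-down libraries, and there were 18 libraries in all.

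LIF is a cytokine that the uterine glands of the mouse secrete around implantation, and in female mice that lack it embryos do not implant. It binds LIFR, which pairs with the shared signaling chain encoded by Il6st. The Janus kinases JAK1 and JAK2 on these receptors phosphorylate STAT3, which enters the nucleus and activates genes that include those of SOCS proteins. SOCS proteins and CISH, whose gene STAT5 activates, in turn damp cytokine signaling. m6A is a methyl mark on adenosine inside mRNA. It is found mostly within the motif DRACH, often near stop codons and in 3′UTRs, and proteins that bind it can alter the decay and translation of a transcript.

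Each peak carries 1 number per comparison, the log likelihood ratio (LLR), a score in the authors' deposited tables that rises as the reads favor a difference between treatments over none. It is not a fold change and not a level. The tables hold no value per library, so replicate error could not be given, no test was made, and the depth behind the values is unknown. A change in the pulled-down share of a transcript and a change in its amount cannot be told apart from these tables, nor can fewer cells of a type and less RNA per cell in whole uterus. The tissue could not be checked against marker genes, since no expression levels were used. Both comparisons use the LPS libraries, so opposite directions at 1 site in the comparisons are not independent. Below, up or down with LPS refers to LPS vs Veh, and up or down with melatonin to Mel+LPS vs LPS. Peaks down with LPS were used on chromosomes 1 to 9 only, which hold 3 of the 10 genes (Il6ra, Jak1 and Cish). Coordinates are those of GRCm38 (mm10). Exons were numbered on 1 protein-coding transcript of each gene in GENCODE mouse release M21. Positions on the mRNA were counted from the last base before the stop codon.

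The sequences below show what the peaks discussed here lie on: the motif nearest the centre of a peak, or a motif inside bases shared by peaks of different tables. Each is a stretch of 25 bases of the GENCODE transcript, written 5′ to 3′ on the strand of the gene, with that DRACH motif in capitals (any base but C, then a purine, then AC, then any base but G). Any further motif in a stretch stays in lower case, as ggact does in the Lif stretch near the stop codon. They are reference sequence, not reads, and the tables do not say which adenosine was methylated. The first 5 lie under peaks up with melatonin.
Lif coding sequence (chr11:4269062-4269086, plus strand): agcgcctcccTGACCaatatcaccc
Lif 3′UTR near the stop codon (chr11:4269356-4269380, plus strand): atggactgagGGACCtcaggagcag
Lif distal 3′UTR (chr11:4271630-4271654, plus strand): gctcatctcaGGACTggctgccctt
Stat3 exon 8 (chr11:100904910-100904934, minus strand): acatctgcctGGACCgtctggaaaa
Il6ra coding end (chr3:89871168-89871192, minus strand): acagcaacagAGACTacttattccc

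The motifs of the next 4 lie under peaks up in LPS vs Veh, and the Cish stretch starts just before its peak.
Lifr last exon, coding (chr15:7190907-7190931, plus strand): ccgctgtggaAGACAcagcagcaga
Lifr 3′UTR (chr15:7191454-7191478, plus strand): acatacatgcTAACCagatctcaca
Socs1 exon 2 (chr16:10784611-10784635, minus strand): cttctattggGGACCcctgagcgtg
Cish 3′UTR (chr9:107301035-107301059, plus strand): atgccagcaaGAACAaggcaggtgg

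The last 4 lie in bases that peaks of both comparisons share. The Il6st site was up in both, the Jak1 site was down with LPS and up with melatonin, and the Jak2 site was up with LPS and down with melatonin. The shared bases of Jak1 hold 6 motifs, of which 2 are shown.
Il6st coding end (chr13:112504214-112504238, plus strand): ggattttgtcAGACTgaagcagcag
Jak1 exon 7, nearest the centre of the LPS peak (chr4:101179568-101179592, minus strand): gaaatatttgAGACTtctatgctac
Jak1 exon 7, nearest the centre of the melatonin peak (chr4:101179481-101179505, minus strand): gaggtcatggTGACTggaaatctcg
Jak2 3′UTR (chr19:29312779-29312803, plus strand): acatggccaaAGACTgtgtgagagg

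LPS vs Veh asks how the endotoxin alters m6A in the uterus at implantation, and Mel+LPS vs LPS asks how melatonin given before it alters the same mark. In LPS vs Veh, 5 of the 10 genes had a peak up (Lifr, Il6st, Jak2, Socs1 and Cish), where 19.7% of 21840 protein-coding genes had one by the same rule. This count was 3 when the annotation had to name the gene, 2 at an LLR of at least 2 and 1 at an LLR of at least 3. The share of protein-coding genes was not computed at these stricter settings, so whether it falls likewise is not known. Of the 3 genes that could be examined for peaks down, 0 had one, where 21.7% of 11962 protein-coding genes on chromosomes 1 to 9 did. In Mel+LPS vs LPS, 6 of the 10 had a peak up (Lif, Lifr, Il6st, Jak1, Stat3 and Socs3), beside 25.2% of protein-coding genes. None of the 10 had a peak down, beside 14.9%. A peak in any table was held by 9 of the 10 genes and by 41.5% of protein-coding genes. Of protein-coding genes with at least 1 peak anywhere, the shares were 47.4% for up with LPS, 49.5% for down with LPS (chromosomes 1 to 9), 60.8% for up with melatonin and 35.9% for down with melatonin. The like counts are of the 9 members with a peak anywhere: 5 up with LPS, 6 up with melatonin and 0 down with melatonin.

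The genes thus fell into 4 patterns. Lif, Jak1, Stat3 and Socs3 (4 genes) had peaks up with melatonin and none up with LPS, as did 16.0% of protein-coding genes. Jak2, Socs1 and Cish (3 genes) had peaks up with LPS and none up with melatonin, as did 10.4%. Lifr and Il6st (2 genes, the receptor chains) had peaks up in both comparisons, where 9.24% of protein-coding genes did, and Il6ra (1 gene) had none. These shares are of all protein-coding genes, with or without a peak anywhere. Whether a gene without a listed peak differed from a gene with one was not tested.

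The 6 peaks up in LPS vs Veh had a median LLR of 1.92 and ranged from 1.41 to 3.20, below the median of 2.88 over all peaks of that table. The 13 peaks up with melatonin had a median of 3.09 and ranged from 1.34 to 7.01, where the median over the table was 2.17. Peaks on genes leaned upward in the melatonin comparison as a whole: 68.3% of 13493 peaks on protein-coding genes were up there, and in LPS vs Veh 48.0% of 7312 on chromosomes 1 to 9 were.

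**Figure D1:**
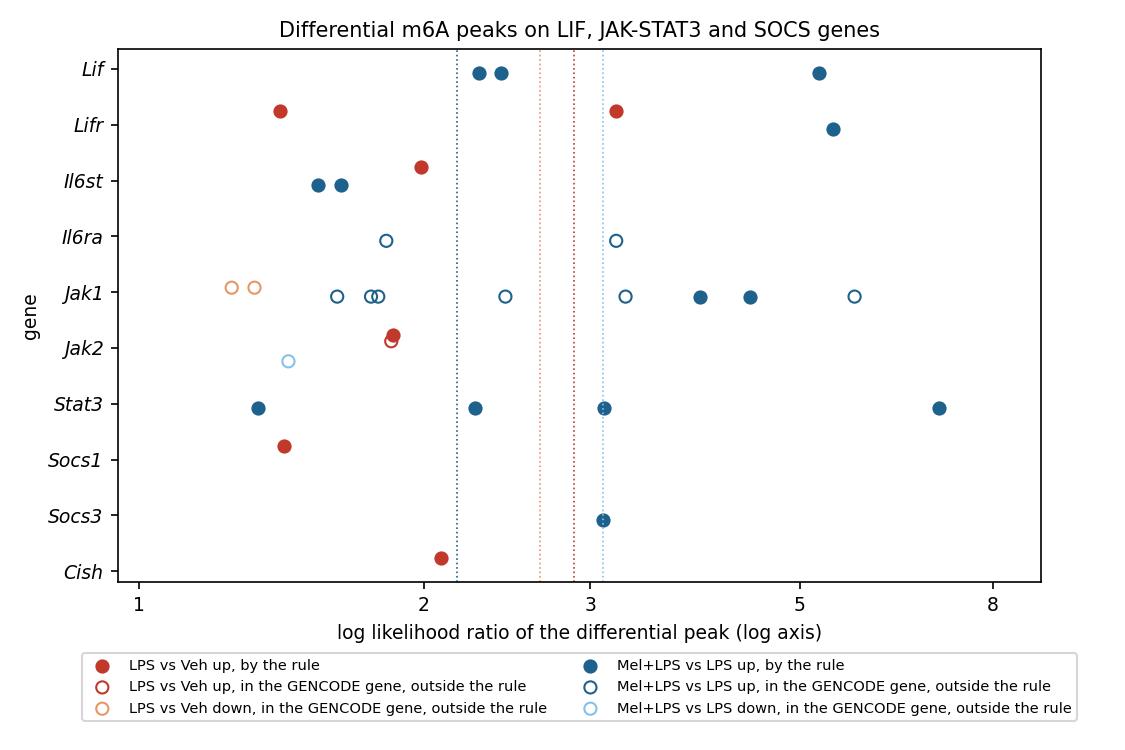
Log likelihood ratio (log axis) of each differential peak on the 10 genes, with 1 row per gene and 1 color per table. Filled points are peaks taken by the rule, open points lie within the GENCODE gene but outside the rule, and dotted lines mark the median of each table; the highest point is the Stat3 peak at 7.01, up in Mel+LPS vs LPS.

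Lif, the ligand, had 3 peaks, all in its last exon, exon 4, and all up in Mel+LPS vs LPS. The first (chr11:4269007-4269126) lay in the coding sequence, with its centre at -265 bases from the coding end and an LLR of 2.41. The second (chr11:4269241-4269532) covered the stop codon, with its centre 55 bases into the 3′UTR and an LLR of 2.29. The third (chr11:4271557-4271743) lay far down the 3′UTR, 2319 bases past the coding end, and had the highest LLR of the 3, 5.24, above 81.7% of the peaks in the table. The 3 held 5, 7 and 2 DRACH motifs. No Lif peak was up in LPS vs Veh, and chromosome 11 was not covered for peaks down, so whether LPS lowered these sites is not known from these values.

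Lifr, the receptor subunit that binds LIF, had peaks up in both comparisons, at different places. The peaks up in LPS vs Veh were both in the last exon, exon 19. The first (chr15:7190767-7191083) was in the coding sequence, at -241 bases from its end, with an LLR of 1.41. The second (chr15:7191418-7191562) was 324 bases into the 3′UTR, with an LLR of 3.20, the highest of the member peaks in that table. The peak up in Mel+LPS vs LPS (chr15:7185655-7185824) touched exon 15 of 19, and its centre was 5185.5 bases from that of the nearest peak of the LPS table. Its LLR of 5.42 was the commonest value of the table, held by 478 other peaks as well, and the 79 exonic bases under it held 0 DRACH motifs.

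Il6st encodes the signaling chain that LIF, interleukin-6 and related cytokines share. Its peak up in LPS vs Veh (chr13:112504193-112505447) was 1255 bases wide, the widest of the 19, ran from the last coding stretch into the 3′UTR, held 28 DRACH motifs and had an LLR of 1.99. With melatonin a peak was up in exon 8 of 17 (chr13:112490593-112490742, LLR 1.64) and another in the last coding stretch (chr13:112504092-112504278, LLR 1.55). The latter shared 86 bases (chr13:112504193-112504278) with the LPS peak, in the same direction, while their centres were 635 bases apart. Il6st was the only one of the 10 genes with such an overlap by the rule, and 0.755% of protein-coding genes had one.

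Il6ra encodes the receptor that takes interleukin-6, not LIF, to the Il6st chain. It had no peak by the rule, but 2 peaks up with melatonin lay within the GENCODE gene. They were assigned in the tables to the promoter of the predicted gene Gm46811. The stronger (chr3:89870476-89870601, LLR 3.20) was 626 bases into the Il6ra 3′UTR, and the other (chr3:89871102-89871260, LLR 1.83) had its centre at -17 bases from the coding end.

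Jak1, a kinase bound to the Il6st chain, had 2 peaks by the rule, both up in Mel+LPS vs LPS. They touched exon 20 (chr4:101157621-101157868, LLR 3.92) and exon 14 of 25 (chr4:101163503-101163664, LLR 4.43), the latter with only 7 exonic bases. A further 6 peaks up with melatonin lay within the GENCODE gene but outside the rule, at exons 2, 4, 5, 6, 7 and 8, with LLRs from 1.62 (exon 6) to 5.71 (exon 8). Of these, 5 were assigned to the small gene Gm24468, and the peak at exon 2 was assigned to the Jak1 promoter, at -2083 bases from the start of the RefSeq transcript used. The authors annotated those at exons 4, 6, 7 and 8 as 5′UTR and those at exons 2 and 5 as promoter. The 8 peaks together made Jak1 the member with most peaks in 1 table.

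Peaks down in LPS vs Veh also lay within Jak1, outside the rule. The first was in the 3′UTR (chr4:101152562-101152682, LLR 1.32) and the second in exon 7 (chr4:101179468-101179639, LLR 1.25). The authors annotated the second as 5′UTR, while its centre is in coding sequence on the GENCODE transcript used here. The exon 7 peak lay wholly inside the peak up with melatonin there (chr4:101179326-101179666, LLR 2.44): they shared 172 bases and their centres were 57.5 bases apart. The 2 sequences of Jak1 exon 7 above lie in those shared bases. The direction was thus opposite in the comparisons at this site. The LLR of the LPS peak was above 8.37% of its table and that of the melatonin peak above 57.3%, and the LPS libraries enter both values.

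Jak2, a kinase of the same family, had 1 peak by the rule, up in LPS vs Veh at exon 15 of 25 (chr19:29295725-29295930, LLR 1.86). In its 3′UTR, peaks of opposite direction overlapped, both assigned to the neighboring gene Insl6. The peak up in LPS vs Veh (chr19:29312603-29312860) had an LLR of 1.85, above 30.3% of its table. The peak down in Mel+LPS vs LPS (chr19:29312772-29313095) had an LLR of 1.44, above 16.6% of its table. They shared 89 bases (chr19:29312772-29312860), with centres 202 bases apart.

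Taken within the GENCODE gene, whatever gene a peak was assigned to, 5 members had a peak up with LPS (25.2% of protein-coding genes), 1 of 3 a peak down with LPS (28.1%), 7 a peak up with melatonin (31.4%) and 1 a peak down with melatonin (20.8%). Opposite overlaps were then found in 1 of 10 members for LPS up with melatonin down (Jak2, beside 11.1% of protein-coding genes) and in 1 of 3 for LPS down with melatonin up (Jak1, beside 11.6%). By the rule itself both counts were 0, beside 8.06% and 8.54%. Il6st remained the 1 member with overlapping peaks up in both comparisons (beside 1.09%). Overlapping peaks down in both were found in 0 of 3 members, by the rule (beside 0.217%) or within the gene (beside 0.334%). The shares of members are those of a gene set of 10, and no peak overlapped an exon of another GENCODE gene.

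Stat3, the transcription factor at the end of the pathway, had 4 peaks, all up in Mel+LPS vs LPS. The highest LLR of the 19 peaks, 7.01, above 91.6% of its table, was in intron 23 (chr11:100889337-100889454), starting 23 bases after the end of exon 23, and no exonic base lay under it. The others touched exon 20 (chr11:100893584-100893758, LLR 3.10), exon 8 (chr11:100904777-100904989, LLR 2.27) and exon 21 (chr11:100892979-100893145, LLR 1.34) of 24. The tables assigned 3 of the 4 to Stat5a and the one at exon 8 to Gm46295, while their annotation named Stat3 transcripts. None of the 4 lay in the 3′UTR.

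The peaks taken for the feedback inhibitors were all up, but not all in the same comparison. Socs1 and Socs3 could not be examined for peaks down with LPS. Socs3, the main inhibitor of signaling through the Il6st chain, had 1 peak, up in Mel+LPS vs LPS (chr11:117967300-117967763), 464 bases wide across the stop codon with its centre 25 bases past the coding end. Its LLR was 3.09 and it held 5 DRACH motifs. Socs1, which blocks JAK kinases directly, had 1 peak, up in LPS vs Veh, in the coding part of exon 2 (chr16:10784569-10784679, LLR 1.42). A further peak, up in Mel+LPS vs LPS (chr16:10742035-10742160, LLR 1.27), was assigned to Socs1 but lay 43376 bases from its start, outside the gene, and was not taken. Cish, an inhibitor that STAT5 activates, had 1 peak, up in LPS vs Veh, 195 bases into the 3′UTR (chr9:107301041-107301144, LLR 2.09), and none down in that comparison.

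**Figure D2:**
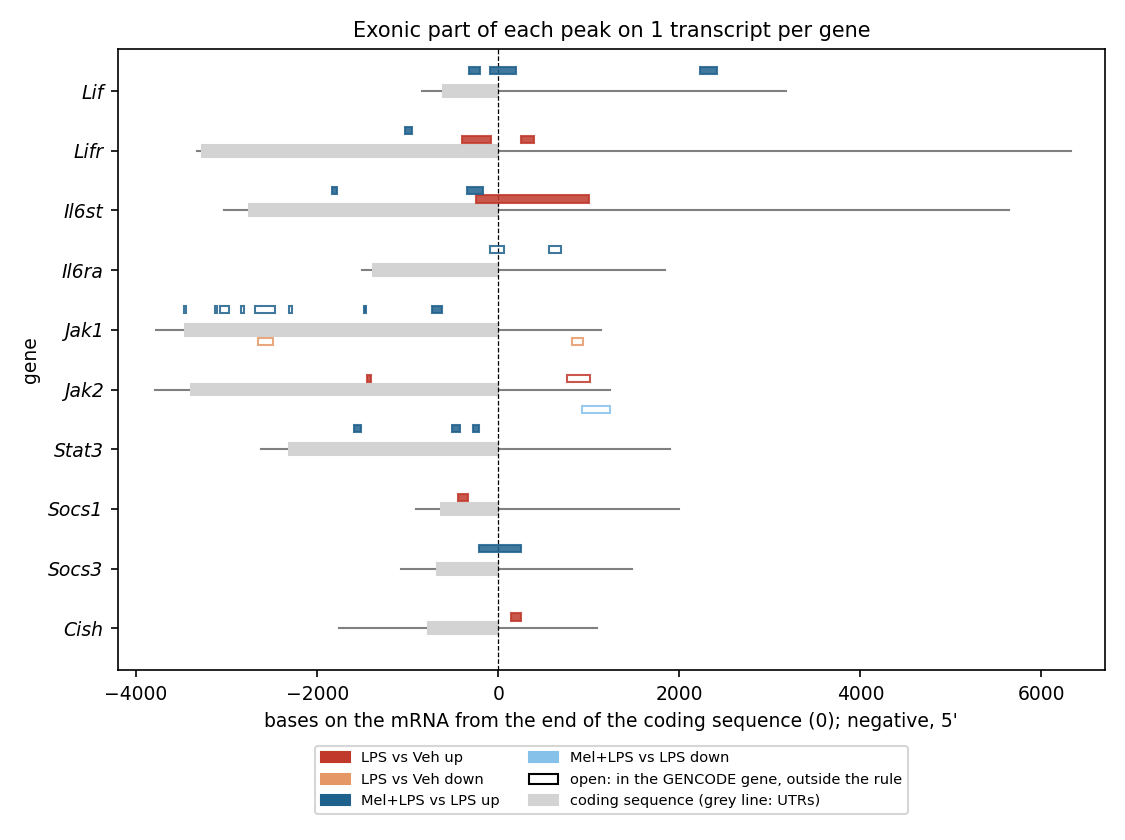
Exonic part of each peak on 1 GENCODE transcript per gene, in bases from the end of the coding sequence (0), with the coding sequence in grey boxes and UTRs as lines. Bars above a gene are peaks up and bars below are peaks down, very short bars are widened for visibility, and the Stat3 intron peak has no exonic base and is not drawn; the Socs3 peak spans the coding end, the Cish peak lies past it, and the Stat3 peaks drawn lie in the coding sequence.

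Of the 19 peaks, 6 (31.6%) had their centre in a 3′UTR, beside 10.3% of 23776 peaks on all protein-coding genes. A further 5 (26.3%, beside 29.7%) were in coding sequence and 8 (42.1%, beside 55.0%) in introns of the transcript used. Centres within 200 bases of the coding end were found for 3 of 19 (15.8%), beside 7.23% of all. These shares rest on few peaks from 9 genes, and peaks of 1 gene are not independent.

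Peaks at inner exons followed the exons at 1 side. Of 15 peaks that touched 1 inner exon, counting those within the gene but outside the rule, 14 ran past its 3′ end and 0 past its 5′ end, and the other lay inside Jak1 exon 7. By the rule it was 8 of 8. They covered from 1 to 212 bases of the exon, with a median of 61, and ran 72 to 161 bases past it, with a median of 129.5. This was not particular to these genes: over all protein-coding genes, 73.5% of 10290 such peaks ran past the 3′ end only and 1.12% past the 5′ end only. All of the 8 peaks with intron centres, other than the Stat3 peak in intron 23, were such peaks.

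**Figure D3:**
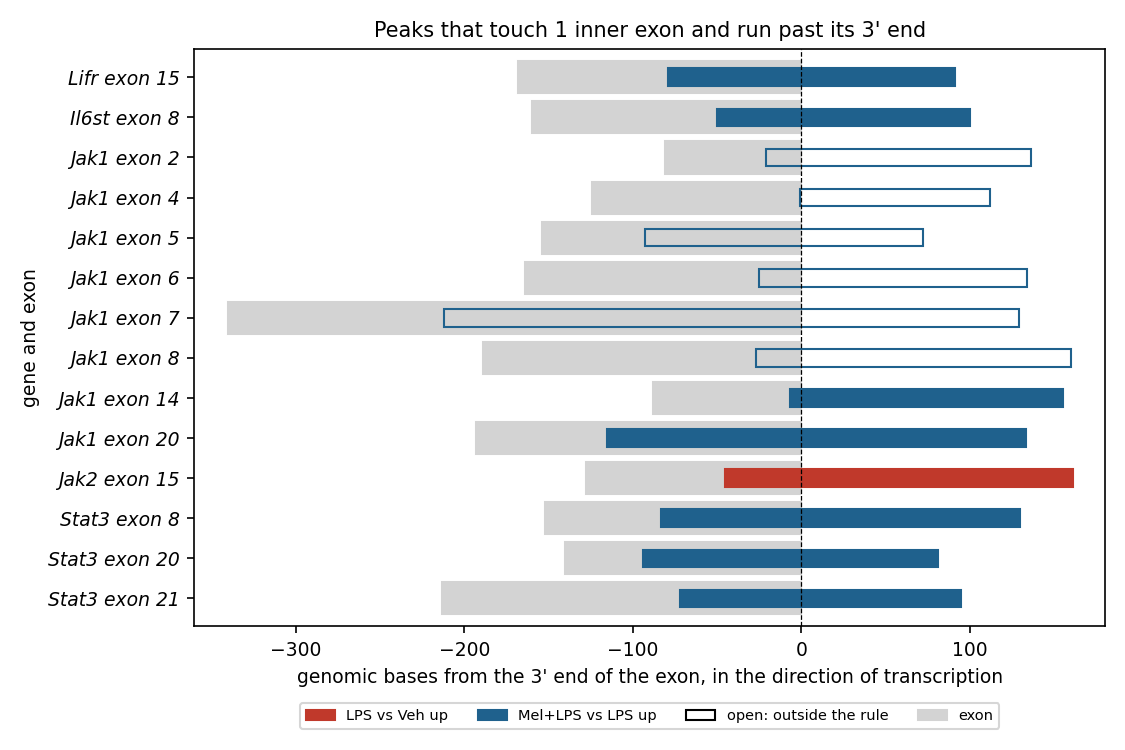
Position of peaks that touch 1 inner exon, in genomic bases from the 3′ end of the exon in the direction of transcription, with the exon as a grey box. The 14 peaks all extend past the exon end, by 72 to 161 bases, and open bars are peaks outside the rule.

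DRACH motifs were counted on the gene's strand in the exonic bases of the peaks. The 18 member peaks with exonic bases held 75 motifs in 3727 bases, or 20.1 per 1000 bases, and 15 of the 18 (83.3%) held at least 1. All peaks on protein-coding genes held 24.5 per 1000 bases, and 78.2% of 16929 held at least 1. With each peak shifted upstream by 100 bases, the density was 20.2 for members and 23.7 for all. Median widths were 175.5 (members up with LPS) and 175 (members up with melatonin), so many shifted peaks kept part of their bases. The Il6st peak alone gave 1255 of the 3727 bases and 28 of the 75 motifs. Shifted peaks also covered more exonic bases, 4400 for members and 2850560 for all. The shift therefore cannot show whether motifs gather under the peaks. The core GGAC occurred 6.44 times per 1000 bases in member peaks and 5.55 in all.

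The other genes of the pathway were examined in 3 lists of 30, 30 and 28 genes. Among other cytokines and receptors, 8 of 30 had a peak up with LPS (beside 19.7% of protein-coding genes) and 9 of 30 a peak up with melatonin (beside 25.2%). A peak down with LPS was held by 1 of 16 (beside 21.7%) and a peak down with melatonin by 3 of 30 (beside 14.9%). The highest LLRs were those of Ifnar2, an interferon receptor chain (8.75, up with LPS), and of Lepr, the leptin receptor (8.82, up with melatonin). Osmr, the receptor chain for oncostatin M, was also up with LPS (7.07). Lepr had a peak down with melatonin too, at another place (5.90), Ifnar2 had a further peak up with melatonin (5.45), and Epor, the erythropoietin receptor, was the only gene of the list down with LPS (2.36).

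Among other JAK, STAT and inhibitor genes, 10 of 30 were up with LPS (beside 19.7% of protein-coding genes) and 4 of 16 down with LPS (beside 21.7%). With melatonin, 15 of 30 were up (beside 25.2%) and 8 of 30 down (beside 14.9%). High values were those of Socs4 (9.03, up with melatonin), the phosphatase gene Ptpn11 (8.05, down with LPS) and the leukocyte phosphatase gene Ptprc (7.62, up with melatonin). Stat4 was down with melatonin (6.26), Stam down with LPS (5.95) and Ptpn6 up with LPS (4.05), and a further peak on Ptpn11 was down with melatonin (3.85). That last value was the commonest of its table, held by 1369 other peaks, a Ptprc peak among them.

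Among LIF- or STAT3-responsive genes, 7 of 28 were up with LPS (beside 19.7% of protein-coding genes) and 4 of 13 down with LPS (beside 21.7%). With melatonin, 16 of 28 were up (beside 25.2%) and 4 of 28 down (beside 14.9%). Saa3, an acute-phase gene, had the highest LLR of the 3 lists, 57.7, up with LPS. Ltf, the lactoferrin gene that estrogen induces in uterine epithelium, had peaks down with LPS (12.2) and down with melatonin (3.01). Msx1, a homeobox gene of the receptive uterus, was up with LPS (7.92). Igfbp7 was down with LPS (3.31) and up with melatonin at another place (7.03), Igfbp3 was up with melatonin (6.997) and Fos, an immediate-early gene, was down with melatonin (4.54).

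Over the 3 lists, 25 of 88 genes were up with LPS (28.4%, beside 19.7% of protein-coding genes) and 9 of 45 down with LPS (beside 21.7%). With melatonin, 40 of 88 were up (45.5%, beside 25.2%) and 15 of 88 down (17.0%, beside 14.9%). Of protein-coding genes with a peak in any table, 47.4% were up with LPS and 49.5% down with LPS (chromosomes 1 to 9). With melatonin, 60.8% of them were up and 35.9% down. Like shares were not computed for the lists, so whether the lists exceed these is not known. Peaks up with LPS and down with melatonin overlapped in 9 of 88 (10.2%, beside 8.06%), among them Cntfr, Socs5, Socs6, Socs7, Ptprc, Egr1, Fos and Msx1. For Ptprc the pair covered the same bases, with an LLR of 3.78 up with LPS and 3.85 down with melatonin. Peaks down with LPS and up with melatonin overlapped in 3 of 45 (6.67%, beside 8.54%): Ptpn11, Stam and Ihh, of which Ihh, a hedgehog ligand of the uterine epithelium, had LLRs of 3.22 and 6.45. Peaks up in both comparisons overlapped in 3 of 88 (3.41%, beside 0.755%): Ihh, Il10ra and Myc.

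**Figure D4:**
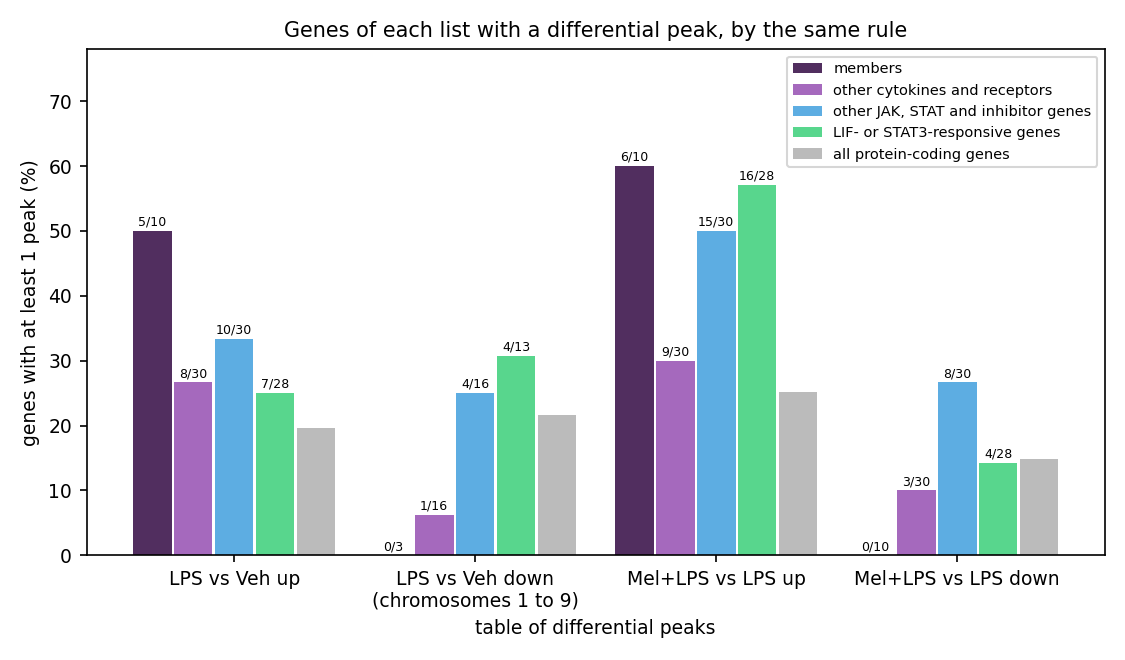
Percent of the genes of each list with a differential peak in each of the 4 tables, beside the percent of all protein-coding genes. Peaks up in Mel+LPS vs LPS were held by 6 of 10 members and by 40 of 88 other genes of the pathway, beside 25.2% of all protein-coding genes. Of protein-coding genes with a peak in any of the 4 tables, 60.8% held one, beside 6 of the 9 members with a peak in any table. Neither of these shares is drawn.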

How the data were processed

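The authors pulled down fragmented uterine RNA with an m6A antibody, and used Fastp for trimming, STAR 2.5.2a for alignment, exomePeak2 for peak calling, MACS2 for differential peaks and ChIPseeker 1.22.1 for annotation (versions from the submitters' processing notes). The 4 deposited tables hold the peaks that differed, 1 table per direction and comparison, and the value used was the score the authors deposited for each peak, a log10 likelihood ratio. How replicates were combined is not stated, and there is no value per library. These tables are the authors' own comparisons, so positions and scores were used and no replicate test was made. Peaks are unstranded. Members and lists were chosen with earlier results of these data known. All peaks of the 10 members are reported. From each list the 2 genes with the highest score in each table, and genes with opposite overlapping peaks, are named. Not every gene or sequence under this rule is reported here. An overlap needs at least 1 shared base. Protein-coding genes of GENCODE mouse release M21 were the background, and transcripts of that release gave the sequences. These sequences are of the reference strain and not of ICR mice. The steps were tested on simulated data. Python 3.11.15, numpy 2.4.6, pandas 2.3.3 and matplotlib 3.10.9 were used. Alternatives were stricter scores, other rules for membership and overlap, another motif, window and background.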

Additional observations from a re-analysis of the deposited data

How the results depend on the processing

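With the gene named after the slash only, members with a peak up in LPS vs Veh numbered 3, with 3 peaks. At a minimum log likelihood ratio of 2 they numbered 2, with 2 peaks, and at 3 they numbered 1, with 1 peak. Members with a peak up in Mel+LPS vs LPS had 7 peaks at a ratio of at least 3 and 21 when the centre had to lie within the GENCODE gene. That rule also gave 1 member with 2 peaks down in LPS vs Veh and 1 member with 1 peak down in Mel+LPS vs LPS. With peaks taken that way, an alternative added after the data were seen, opposite overlaps numbered 1 for LPS up with melatonin down and 1 for LPS down with melatonin up. The overlap in the same direction (Il6st) numbered 0 when 50% of the shorter peak had to be shared, 0 when centres had to lie within 200 bases and 0 when both ratios had to reach 2. Other pathway genes with a ratio of at least 3 numbered 14 up with LPS, 13 up and 7 down with melatonin. Shares of all protein-coding genes were not computed for stricter ratios or for the gene named after the slash only. GGAC occurred 6.44 times per 1000 bases. The other 45 values moved by less than 1.5 times. The cause of these changes was not tested. No paired analysis was possible because the tables hold no value per replicate, and leaving out a replicate was not possible either. Depth is unknown and limits what an absent peak means.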

Other observations

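Tied log likelihood ratios were common in the tables. The commonest value was held by 1450 peaks (12.1%) up in LPS vs Veh, by 734 (11.7%) down in LPS vs Veh, by 479 (3.57%) up in Mel+LPS vs LPS and by 1370 (14.9%) down in Mel+LPS vs LPS. Of the 19 member peaks, 1 had the commonest value of its table, the Lifr peak at exon 15. Among other genes of the pathway, the Cntfr and Ptprc pairs of opposite direction, both in introns, had the commonest value of each table, 3.78 up with LPS and 3.85 down with melatonin. The Ptpn11 peak down with melatonin, also in an intron, had the latter value too.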
